A study of Homo sapiens with 12 samples.

Results

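The chromosome 19 zinc finger genes were taken as the protein-coding genes whose symbol begins with ZNF and a digit and which lie on chromosome 19. GENCODE release 44 (GRCh38) lists 249 of them, and 205 were among the 17013 features measured by mRNA-seq here. The other 44 were not in the table. The rule itself used names and positions, but presence in the table depended on reads: no listed feature had a highest group mean under 10.67 normalized reads. Of the members, 5 (ZNF763, ZNF20, ZNF253, ZNF682 and ZNF415) had vehicle means under that value and reached it with doxorubicin, as did 9.58% of all features, so they entered through the treated groups and their rise is not independent of that entry. HCC1806 is an established human cell line from a triple-negative breast cancer, a tumor type that lacks the estrogen and progesterone receptors and HER2 amplification. The cells were transfected with siNT, a non-targeting siRNA, or with siMLK4, a pool of siRNAs against the kinase MLK4 (gene MAP3K21), and then received vehicle (labelled DMSO) or 1 μM doxorubicin for 24 h. The sample titles mark the vehicle libraries as time 0 and the doxorubicin libraries as time 24. The study's text describes arms run in parallel and calls the former untreated in one place and vehicle-treated elsewhere. Doxorubicin is an anthracycline that traps topoisomerase II on DNA and causes strand breaks. The 4 groups were siNT with vehicle, siNT with doxorubicin, siMLK4 with vehicle and siMLK4 with doxorubicin, with 3 libraries each. All groups share 1 cell line. Per the study's methods each siRNA was transfected in triplicate, and no source used here says that these came from cultures started apart, so p-values measure the spread between these transfections, which may be technical.

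Proteins of this family carry rows of C2H2 zinc fingers that each contact a few bases of DNA. Most also carry an amino-terminal KRAB domain, which binds the corepressor TRIM28 and through it the histone methyltransferase SETDB1, so that bound DNA gains H3K9me3 and falls silent. Many of them bind transposable elements, and the genes themselves stand in tandem clusters on chromosome 19 that arose by duplication. A KRAB A box was found by a sequence profile in 179 of the 205 measured genes, and 26 had none. The median gene encoded 12 fingers, with a range of 1 to 31. The largest groups of measured genes lay in the bands 19q13.43 (49 of 52 annotated), 19p13.2 (32 of 40), 19q13.41 (28 of 30) and 19q13.31 (21 of 23). Band 19q13.12 held 18 of 26, 19p12 17 of 33, 19q13.42 16 of 17, 19q13.11 6 of 6 and 19p13.3 5 of 5, and 13 genes lay in bands with fewer than 5 measured members.

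Each library held between 16759025 and 19302248 reads on the listed features. Values below are normalized reads, that is whole reads divided by the authors' size factor for that library, unless a sentence says otherwise. Fold changes are differences of the authors' log2-scale values, which compress the change of genes with few reads. The plain ratio of mean normalized reads, or the reads themselves, is therefore given beside many of them. A log2 fold change given alone may understate the change of a gene with few reads. MAP3K21, the siRNA target, had 553, 669.6 and 674 normalized reads with siNT and vehicle, against 103, 94.7 and 88.7 with siMLK4 and vehicle. With doxorubicin it had 758, 856 and 772 in siNT cells and 113, 138 and 94.3 in siMLK4 cells. The log2 fold change of siMLK4 against siNT was -2.24 ± 0.12 (SE, limma adjusted p = 9.7e-08) with vehicle and -2.37 ± 0.12 (limma adjusted p = 1.1e-07) with doxorubicin. The epithelial markers EPCAM, KRT5, KRT14, KRT17, KRT6A and TP63, listed for a basal breast line, were all measured. Their summed normalized reads were 62971 to 64413 with siNT and vehicle and 34374 to 37284 with siNT and doxorubicin. They were 55614 to 56562 with siMLK4 and vehicle and 20945 to 24695 with siMLK4 and doxorubicin. KRT5 was the most abundant of them. With doxorubicin KRT5, KRT14, KRT6A and TP63 were called lower in both backgrounds, while EPCAM and KRT17 had log2 fold changes of -0.04 and -0.01 in siNT cells and -0.05 and -0.17 in siMLK4 cells. With siMLK4 and vehicle EPCAM, KRT14, KRT17 and KRT6A were lower at adjusted p under 0.05, KRT5 was higher (0.64) and TP63 had -0.43. Several of these epithelial markers thus moved with each treatment, and their part in the results was not tested. Of the receptors, ESR1 and PGR were low, with 5.56 and 0.424 reads per kilobase of exon, and ERBB2 had 165. PGR had no read in any vehicle library and 7.26 to 18.5 normalized reads with doxorubicin, and ESR1 fell at adjusted p under 0.05 in both backgrounds (-0.61 and -0.78). Of the leukocyte markers, PTPRC had 2.35 to 7.86 normalized reads with siNT and vehicle, 19.3 to 21.2 with siNT and doxorubicin, 0 to 3.24 with siMLK4 and vehicle and 11.9 to 20.9 with siMLK4 and doxorubicin, and CD3E, LYZ and CD68 were not listed. Of the endothelial markers, VWF summed to 13.5 to 67.1 normalized reads, and PECAM1, CDH5 and KDR were not listed. The fibroblast list summed to 379 to 459 normalized reads with siNT and vehicle, 279.9 to 301 with siNT and doxorubicin, 646 to 809.7 with siMLK4 and vehicle and 358 to 499.9 with siMLK4 and doxorubicin. COL1A1 was its most abundant gene, LUM was called lower with doxorubicin in both backgrounds, and COL1A2, COL3A1 and DCN were not listed. The part of these markers in the results was not tested. Because these are bulk samples, fewer cells of a type and less RNA per cell cannot be told apart.

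The vehicle libraries differed most among themselves. Over all features, the chi-square per degree of freedom between 2 libraries of a group ran from 7.2 to 67.6, and it reached 61.2 between siNT vehicle replicates 1 and 3 and 67.6 between siMLK4 vehicle replicates 1 and 3. The zinc finger genes took 0.307%, 0.343% and 0.352% of reads with siNT and vehicle, and 0.38%, 0.369% and 0.312% with siMLK4 and vehicle. Under doxorubicin their share was 0.43%, 0.463% and 0.422% for siNT and 0.44%, 0.458% and 0.414% for siMLK4. By this share of raw reads every doxorubicin library lay above every vehicle library. The share of reads on features that are not protein-coding was apart in the same way, at 2.75% to 3.55% in the vehicle and 3.56% to 4.76% in the doxorubicin libraries. The mitochondrial share was 1.74% to 3.67% with siNT and vehicle, 2.62% to 3.57% with siNT and doxorubicin, 2.6% to 3.25% with siMLK4 and vehicle and 3.84% to 4.75% with siMLK4 and doxorubicin. The part of these shares in the results was not tested. By the sum of normalized reads of the zinc finger genes the groups overlapped, since siMLK4 doxorubicin replicates 3 and 1 (67713 and 70481) lay below siNT vehicle replicate 3 (71407). On both scales the lowest libraries were siNT vehicle replicate 1 and siMLK4 vehicle replicate 3.

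The family was modestly expressed. The mean over the 12 libraries ranged from 7.87 to 3263 normalized reads, with a median of 185 against 501 for all protein-coding genes, and 15 genes exceeded 1000. Per length, the median was 39.6 reads per kilobase of exon, against 87 for all protein-coding genes and 44.7 for the 233 ZNF genes of other chromosomes. ZNF544 was the highest in its band and overall with 452 reads per kilobase (3919 ± 128 normalized reads with siNT and vehicle, SD, n = 3). ZNF274, which brings SETDB1 to the ends of other zinc finger genes, had 343 reads per kilobase, and ZNF146, a protein of fingers alone, had 332. By the mean over the 12 libraries, the leading genes of the other bands were ZNF675 in 19p12 (279 reads per kilobase), ZNF317 in 19p13.2 (262), ZNF614 in 19q13.41 (194), ZNF580 in 19q13.42 (174), ZNF302 in 19q13.11 (101), ZNF222 in 19q13.31 (101) and ZNF57 in 19p13.3 (82.2). The leader changed with the group. With siNT and vehicle, ZNF121 (333) lay above ZNF317 (281) and ZNF45 (121) above ZNF222 (70.1). In the same group ZNF581 (159) lay above ZNF580 (134) and ZNF77 (58.9) above ZNF57 (57.5). With siNT and doxorubicin, ZNF28 (258) lay above ZNF614 (172). Neighbours in this order such as ZNF274 and ZNF146 overlapped in their values, since ZNF146 had 521 reads per kilobase with siNT and vehicle and 186 with siMLK4 and doxorubicin.

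The response of the family to DNA damage was examined first in siNT cells. Doxorubicin shifted the zinc finger genes upward: their median log2 fold change was 0.24, while that of all protein-coding genes was -0.06 and that of the other 791 protein-coding genes of chromosome 19 was -0.12. By the study's thresholds (adjusted p below 0.01 with a log2 fold change beyond 0.75 in size), 26 of 205 were called higher (12.7%) and 8 lower (3.9%). In all of these the libraries of the 2 groups did not overlap, as was so for 120 of all 205 members. The share of all features under that rule is not given, so these counts say nothing about the family. Among all 17013 features 12.1% were called higher and 10.6% lower. The 26 include ZNF763 and ZNF682, which entered the table through doxorubicin. Features that entered that way and were called higher made up 0.976% of members and 3.31% of all features. The share called higher was thus near a background that holds more of such features, and the share called lower was below it. Without a fold threshold, at adjusted p under 0.05, 82 genes were higher and 27 lower, or 40.0% and 13.2%, beside 29.6% and 27.7% of all features. Of the 233 ZNF genes on other chromosomes, 70 were higher (30.0%) and 40 lower (17.2%) by the same rule, with a median of 0.09. On simple log2 counts or with limma-voom, 43 to 44 members were called higher (21.0% to 21.5%, beside 18.0% to 18.8% of all features) and 10 to 11 lower (4.88% to 5.37%, beside 13.8% to 14.1%), and these included all 26 and all 8. Scaling to library totals called 68 higher (33.2%, beside 24.7% of all features) and 8 lower (3.90%, beside 8.96%), with the median of all features moved up by 0.24.

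In siMLK4 cells the response was similar. The median log2 fold change was 0.17, against -0.02 for all protein-coding genes and 0.00 for the other protein-coding genes of chromosome 19. The study's thresholds called 24 genes higher (11.7%) and 6 lower (2.93%), beside 12.6% and 10.6% of all features. Features that entered the table through doxorubicin and were called higher made up 0.488% of members and 3.68% of all features. At adjusted p under 0.05, 67 were higher (32.7%) and 30 lower (14.6%), beside 30.2% and 27.7% of all features. Limma-voom called 34 higher (16.6%, beside 18.3% of all features) and 11 lower (5.37%, beside 14.7%), and scaling to library totals called 47 higher (22.9%, beside 23.1%) and 5 lower (2.44%, beside 10.5%). These libraries share none with the siNT comparison. By the study's thresholds, 19 genes were higher in both (9.27%, beside 8.82% of all features) and 5 lower in both (2.44%, beside 7.59%). At adjusted p under 0.05, 56 were higher in both (27.3%, beside 24.1%) and 21 lower in both (10.2%, beside 21.5%), and none moved in opposite directions, as 0.241% of all features did. Over the 205 genes the log2 fold changes of the 2 siRNA backgrounds had a Pearson correlation of 0.89, the value also found over all 17013 features. Genes are not independent replicates, and the correlation is given as a description.

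**Figure D1:**
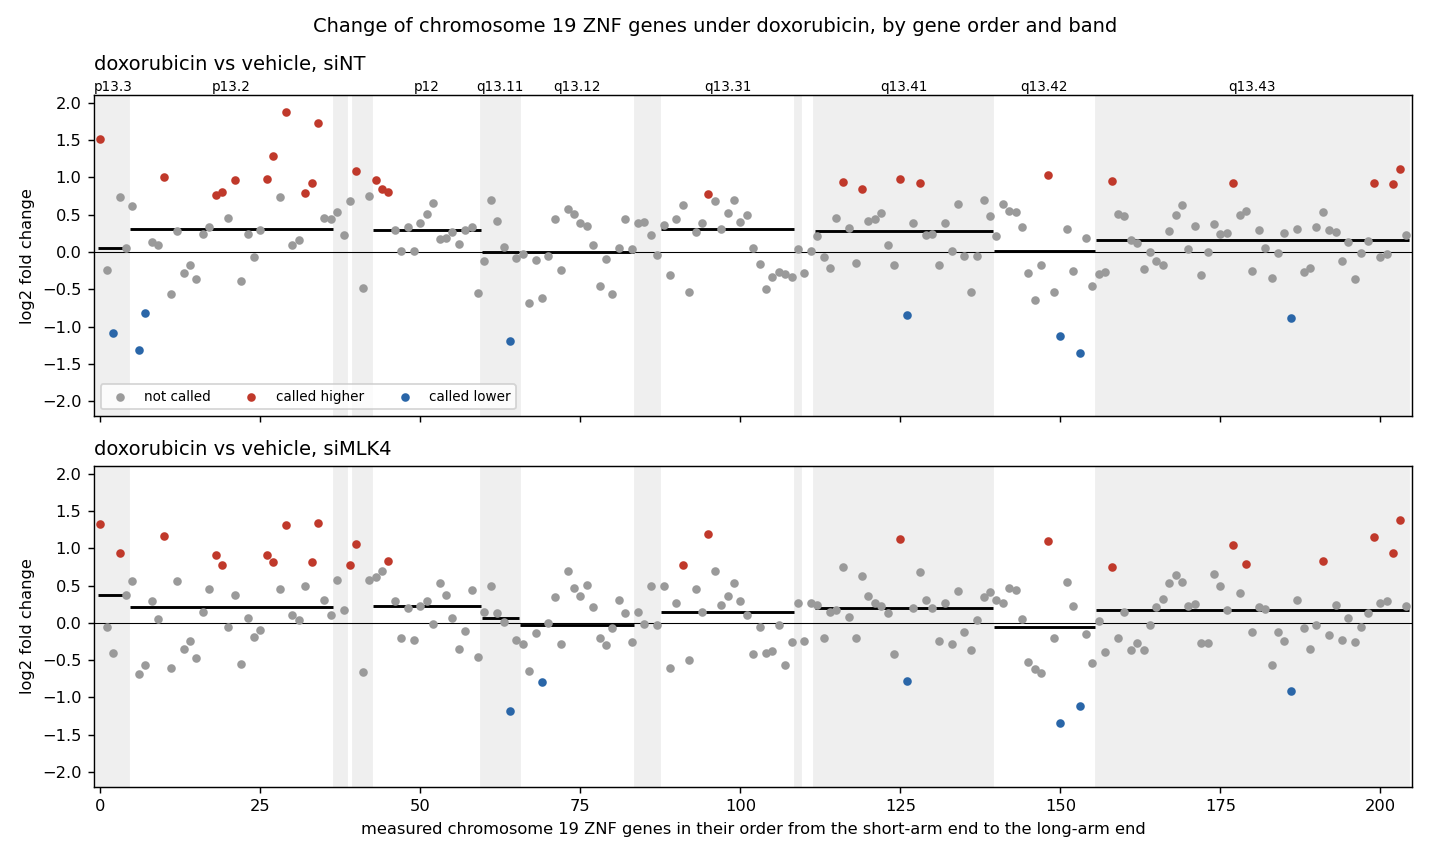
Log2 fold change of each of the 205 measured chromosome 19 ZNF genes (vertical axis) under doxorubicin against vehicle, in gene order along the chromosome (horizontal axis), for siNT cells (top) and siMLK4 cells (bottom). Red and blue points are genes called higher and lower by the study's thresholds, black bars are medians of bands with at least 5 genes and grey shading marks alternate bands; in siNT cells the called genes crowd in 19p13.2 (10 higher and 2 lower), while in siMLK4 cells 19p13.2 (8 higher, none lower) and 19q13.43 (7 higher, 1 lower) held as many.

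The increase was uneven along the chromosome. Band 19p13.2 had a median of 0.31 in siNT cells, with 10 of 32 genes called higher (31.2%, beside 12.1% of all features) and 2 lower (6.25%, beside 10.6%). Bands 19p12, 19q13.31 and 19q13.41 had medians of 0.30, 0.31 and 0.28, with 3 of 17 (17.6%), 1 of 21 (4.76%) and 4 of 28 (14.3%) genes called higher. In siMLK4 cells 8 of 32 genes of 19p13.2 (25%), 1 of 17 of 19p12 (5.88%), 2 of 21 of 19q13.31 (9.52%) 1 of 28 of 19q13.41 (3.57%) and 7 of 49 of 19q13.43 (14.3%) were called higher, beside 12.6% of all features. In siNT cells the median was 0.16 in 19q13.43, where 5 of 49 were called higher (10.2%) and 1 lower (2.04%), and 0.00 in 19q13.12, where none was called. In 19q13.42 it was 0.01, with 1 of 16 genes called higher (6.25%) and 2 lower (12.5%), beside 12.1% and 10.6% of all features. The counts of 19q13.42 were the same in siMLK4 cells (6.25% and 12.5%, beside 12.6% and 10.6%). In siMLK4 cells the medians were 0.21 in 19p13.2, 0.22 in 19p12, 0.14 in 19q13.31, 0.20 in 19q13.41, 0.17 in 19q13.43, -0.04 in 19q13.12 and -0.05 in 19q13.42. With features of at least 50 mean normalized reads only, which left 10 of the 17 genes, the 19p12 median in siMLK4 cells turned to -0.02. The smaller bands 19p13.3 and 19q13.11 had medians of 0.06 and -0.01 in siNT cells and of 0.37 and 0.07 in siMLK4 cells. In 19p13.3, 1 of 5 genes was called higher and 1 lower in siNT cells and 2 higher in siMLK4 cells. No test was made between bands.

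Band 19p13.2 holds separate runs of these genes. When runs were set apart by gaps of over 1 Mb, the run from ZNF653 to ZNF791 (chr19:11483427-12640098, reaching into 19p13.13) had a median of 0.54 in siNT cells, with 9 of 21 genes called higher (42.9%, beside 12.1% of all features) and none lower (beside 10.6%), and 0.37 in siMLK4 cells, with 7 higher (33.3%, beside 12.6%) and none lower (beside 10.6%). This run was singled out after its values were seen. The run from ZNF557 to ZNF846 (chr19:7069703-9793180) had medians of 0.10 and 0.05, with 1 of 13 genes called higher in each (7.69%) and 2 called lower in siNT cells (15.4%, beside 10.6%). The 9 genes called higher in the first run were ZNF653, ZNF627, ZNF441, ZNF763, ZNF433, ZNF844, ZNF44, ZNF563 and ZNF442. Among these, ZNF763 entered the table through doxorubicin. In the same run ZNF440, with a log2 fold change of -0.39 in siNT cells (limma adjusted p = 0.0078), and ZNF69, with -0.07, were not among them, so members of 1 run did not move as a block.

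**Figure D2:**
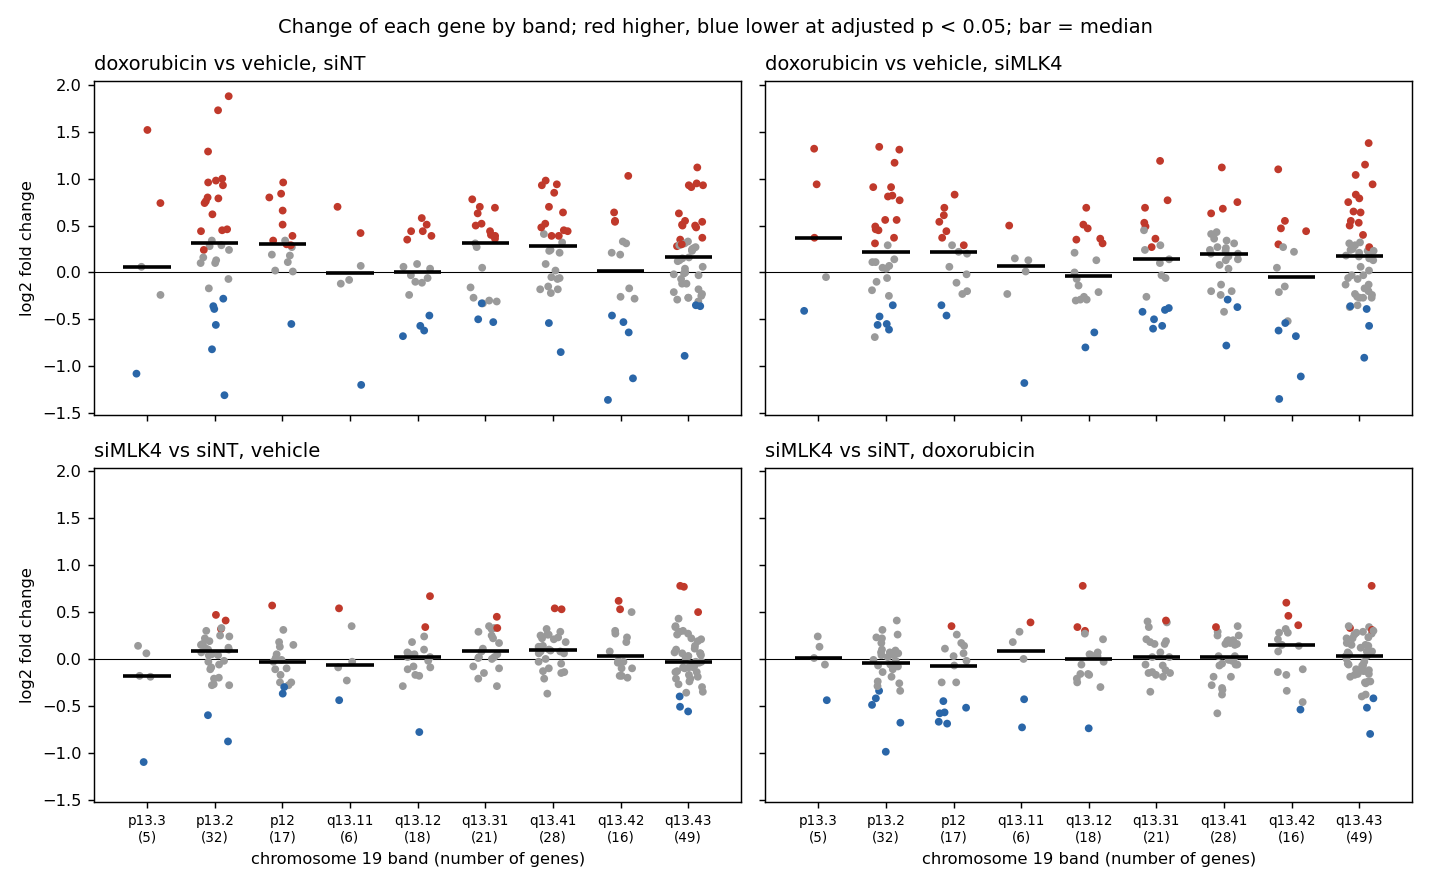
Log2 fold change of each gene (vertical axis) by band of chromosome 19 (horizontal axis, number of genes in parentheses) in the 4 comparisons. Red and blue points passed adjusted p under 0.05 upward and downward, grey points did not and black bars are medians; the doxorubicin panels lie mostly above 0 in 19p13.2 and the siRNA panels center near 0 in every band with at least 16 genes.

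ZNF844, ZNF442 and ZNF433 of that run were among the 4 genes with the highest log2 fold changes of the family in siNT cells. All encode KRAB zinc finger proteins without an established role. The 250 bases before their RefSeq start sites are shown because these members of 1 run rose, with the promoters of ZNF579 and ZNF784, members of 19q13.42 that fell, for contrast. Other members lie between them. Between ZNF844 and ZNF442, ZNF20 and ZNF136 did not pass adjusted p under 0.05 in either background. ZNF44 and ZNF563 lie there too, and were called higher in siNT cells (0.79 and 0.93) and had 0.49 and 0.82 in siMLK4 cells. Between ZNF579 and ZNF784, ZNF524 and ZNF865 had log2 fold changes of 0.31 and -0.26 in siNT cells and 0.55 and 0.22 in siMLK4 cells. Capitals mark CCAAT, the motif bound by NF-Y, and GGGCGG, the motif bound by Sp1, on either strand (ATTGG and CCGCCC on the other). The sequences run 5′ to 3′ on the strand of each gene (GRCh38.p14) and lie at chr19:12035680-12035929 (minus), chr19:12064481-12064730 (plus), chr19:12365684-12365933 (minus), chr19:55580849-55581098 (minus) and chr19:55624567-55624816 (minus), in the order listed.
ZNF433: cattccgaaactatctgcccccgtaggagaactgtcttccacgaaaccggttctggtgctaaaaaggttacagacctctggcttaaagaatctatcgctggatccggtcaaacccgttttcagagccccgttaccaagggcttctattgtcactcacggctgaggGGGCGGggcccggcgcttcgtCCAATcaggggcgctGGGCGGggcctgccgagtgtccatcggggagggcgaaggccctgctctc
ZNF844: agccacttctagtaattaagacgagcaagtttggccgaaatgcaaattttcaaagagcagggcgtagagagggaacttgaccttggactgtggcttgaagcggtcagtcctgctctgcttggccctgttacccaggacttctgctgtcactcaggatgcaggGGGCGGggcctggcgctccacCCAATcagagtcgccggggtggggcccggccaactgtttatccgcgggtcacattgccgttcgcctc
ZNF442: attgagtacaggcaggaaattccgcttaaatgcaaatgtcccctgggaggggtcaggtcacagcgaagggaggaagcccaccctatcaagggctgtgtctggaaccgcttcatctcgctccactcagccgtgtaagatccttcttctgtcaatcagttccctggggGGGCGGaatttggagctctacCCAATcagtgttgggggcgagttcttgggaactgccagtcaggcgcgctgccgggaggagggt
ZNF579: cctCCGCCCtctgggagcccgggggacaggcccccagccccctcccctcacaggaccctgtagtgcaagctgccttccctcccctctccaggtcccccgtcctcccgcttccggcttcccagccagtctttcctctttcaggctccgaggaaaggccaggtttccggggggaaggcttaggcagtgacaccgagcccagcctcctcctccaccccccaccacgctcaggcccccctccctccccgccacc
ZNF784: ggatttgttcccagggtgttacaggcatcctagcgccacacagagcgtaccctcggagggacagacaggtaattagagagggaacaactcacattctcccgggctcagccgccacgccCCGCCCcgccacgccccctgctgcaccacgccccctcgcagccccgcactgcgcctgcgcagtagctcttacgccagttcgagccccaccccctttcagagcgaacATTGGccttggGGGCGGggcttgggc

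The 3 promoters from 19p13.2 each held GGGCGG followed, a short distance on, by CCAAT in the same orientation. That of ZNF579 held 1 GGGCGG and no CCAAT, and that of ZNF784 held 2 GGGCGG and 1 CCAAT. Over the 300-base RefSeq windows of 182 members, CCAAT was present in 52.2%, beside 35.7% of all 27305 gene promoters and 36.9% of the 10994 of measured protein-coding genes, and the median log2 fold change in siNT cells was 0.24 with it and 0.23 without. GGGCGG was present in 67.0% of members, 44.6% of all promoters and 69.8% of those of measured protein-coding genes, and members with and without it had medians of 0.23 and 0.27. The ETS factor motif CCGGAAGT stood in 21.4% of members against 4.44% of all promoters and 8.35% of those of measured protein-coding genes. Members with it had a median of 0.21 and those without it 0.24. The E2F motif GCGGGAA stood in 9.34% of members, 6.56% of all promoters and 10.3% of those of measured protein-coding genes. The 17 members that held it had a median of 0.50 against 0.21 in siNT cells and 0.36 against 0.15 in siMLK4 cells, which was not tested. Motifs were searched on both strands, and a match is not a bound site.

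ZNF844 (chr19:12064731-12081565) had 152, 119 and 98.8 normalized reads with siNT and vehicle, and 610.0, 630.1 and 510.0 once doxorubicin was added. In siMLK4 cells it had 120, 142 and 162 with vehicle and 430, 430 and 402 with doxorubicin. The doxorubicin libraries lay above all vehicle libraries in both backgrounds. Its log2 fold change was 1.88 ± 0.13 (SE, limma adjusted p = 1.1e-07) in siNT cells, a 4.73-fold ratio of means, and 1.31 ± 0.13 (2.98-fold, limma adjusted p = 2.4e-06) in siMLK4 cells. Of its 50-base transcript stretches, 45.4% also occur in transcripts of other genes, so its count is less certain than most. ZNF442 (chr19:12345944-12365905), with 2.74% of stretches shared, had 38.8, 43.6 and 35.9 normalized reads with siNT and vehicle and 212, 255 and 226 with doxorubicin. It had 68.1, 60.8 and 66 with siMLK4 and vehicle and 245, 227 and 230 with doxorubicin. Its log2 fold changes were 1.73 ± 0.10 (5.86-fold, limma adjusted p = 4.2e-08) and 1.34 ± 0.10 (3.6-fold, limma adjusted p = 2.7e-07). ZNF433 rose in siNT cells from 92.5 ± 7.47 to 294 ± 24.3 normalized reads (mean ± SD, n = 3), and in siMLK4 cells from 115 ± 0.498 to 237 ± 27.2.

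Genes outside 19p13.2 rose as well. ZNF554 in 19p13.3 (chr19:2819868-2836735) had 30.5, 14.5 and 12.4 normalized reads with siNT and vehicle and 137, 147 and 92.3 with doxorubicin. Its log2 fold changes were 1.52 ± 0.16 (6.54-fold, limma adjusted p = 2.6e-06) in siNT cells and 1.32 ± 0.16 (5.02-fold, limma adjusted p = 8.7e-06) in siMLK4 cells. ZNF324 in 19q13.43 (chr19:58467056-58475436) was far more abundant, with 929, 1077 and 822 normalized reads with siNT and vehicle and 2305, 2116 and 1914 with doxorubicin. In siMLK4 cells it went from 908, 1065 and 933 to 2642, 2868 and 2323, a log2 fold change of 1.38 ± 0.12 (2.7-fold, limma adjusted p = 8.1e-07), the highest of the family in that background. Its exons overlap those of other genes on the same strand over 25.1% of their length, and it shares 33.7% of its 50-base stretches with other genes. ZNF101 in 19p13.11 rose 2.39-fold and 2.34-fold in siNT and siMLK4 cells. ZNF230 in 19q13.31 and ZNF699 in 19p13.2 were among the 6 highest in siMLK4 cells. Their log2 fold changes there were 1.19 ± 0.12 (2.73-fold) and 1.17 ± 0.15 (2.67-fold). In siNT cells they were 0.78 ± 0.12 (1.96-fold) and 1.00 ± 0.15 (2.25-fold). ZNF763, also called higher in both backgrounds, had 1.17, 3.12 and 1.12 normalized reads with siNT and vehicle, so that its ratio is not given, and 42.5, 15.3 and 22.3 with doxorubicin. It entered the table through doxorubicin, and it shares 45.4% of its 50-base stretches with other genes.

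**Figure D3:**
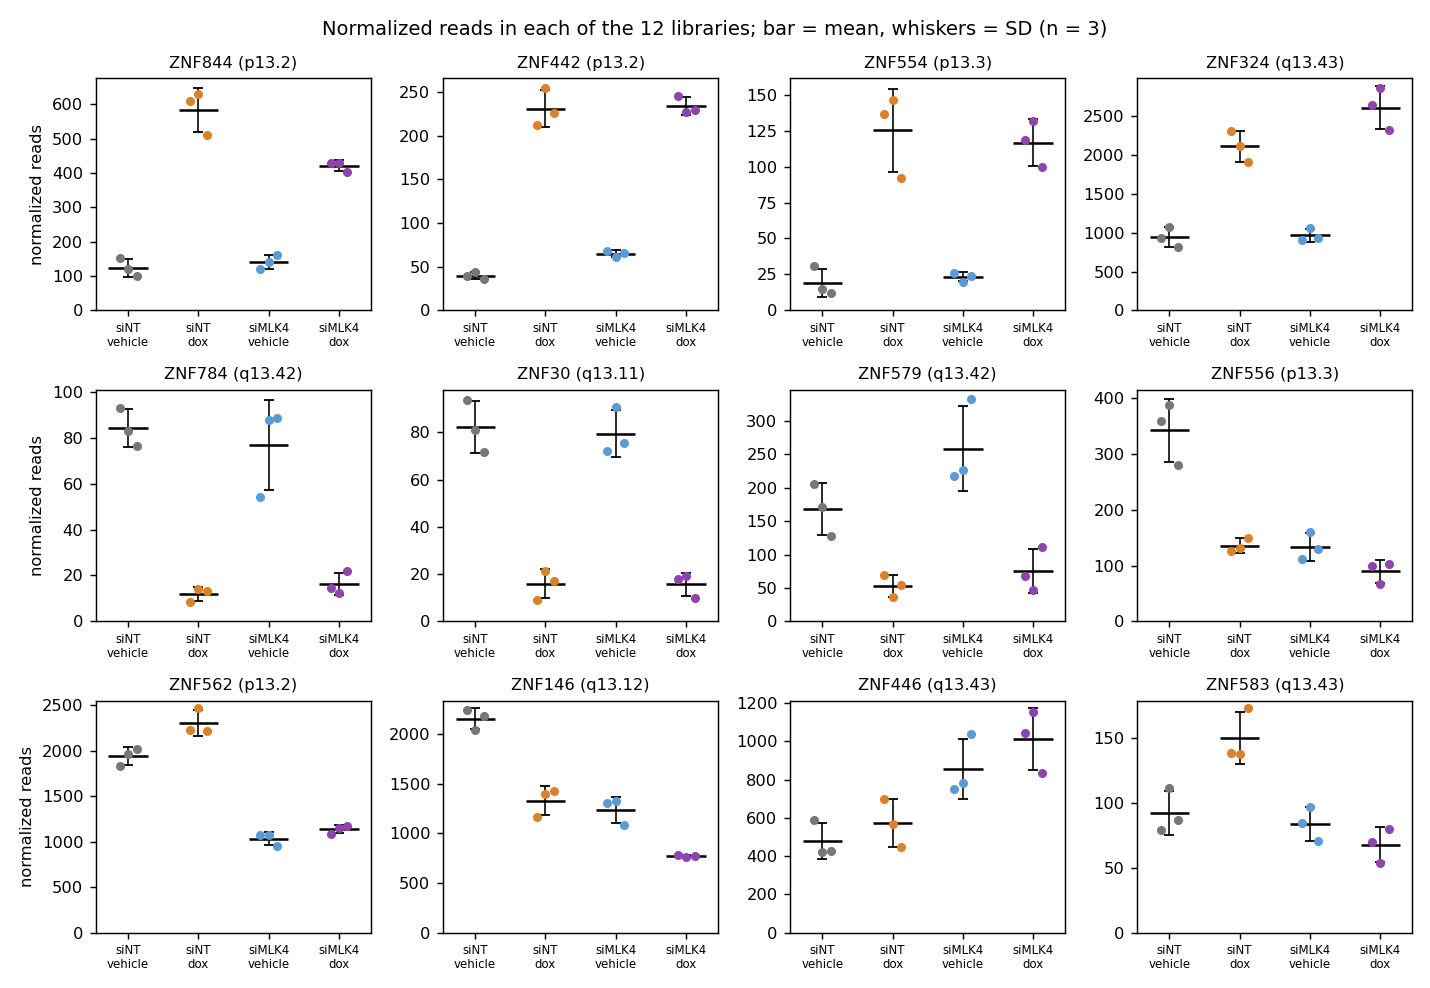
Normalized reads (vertical axis, linear and starting at 0) of 12 chromosome 19 ZNF genes in each of the 12 libraries, by group (horizontal axis). Points are libraries, bars are means and whiskers SD (n = 3); the top row rose with doxorubicin in both backgrounds, ZNF784, ZNF30 and ZNF579 fell in both, and ZNF562 and ZNF146 were lower in all siMLK4 libraries than in the siNT libraries of the same treatment.

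Fewer members fell. ZNF784 in 19q13.42 (chr19:55620741-55624566) had 92.8, 83.1 and 76.3 normalized reads with siNT and vehicle and 8.31, 14.3 and 13.2 with doxorubicin. In siMLK4 cells it had 54.1, 87.7 and 88.7 with vehicle and 14.4, 12.5 and 21.8 with doxorubicin. No doxorubicin library reached a vehicle library, and the log2 fold changes were -1.36 ± 0.14 (0.142 of the vehicle mean, limma adjusted p = 2.3e-06) and -1.11 ± 0.14 (0.211 of it, limma adjusted p = 1.3e-05). ZNF579 in the same band (chr19:55576774-55580848) fell in siNT cells from 168 ± 38.8 to 53.5 ± 16.3 normalized reads, and in siMLK4 cells from 259 ± 63.7 to 75.4 ± 33.1, with log2 fold changes of -1.13 ± 0.21 and -1.35 ± 0.21. ZNF30 in 19q13.11 (chr19:34926903-34945170) had 93.9, 81 and 71.9 normalized reads with siNT and vehicle and 9.23, 21.4 and 17.2 with doxorubicin, and in siMLK4 cells 72.1, 90.7 and 75.7 against 17.8, 19.2 and 9.98. It fell by 1.20 ± 0.13 and 1.18 ± 0.13 on the log2 scale, to 0.194 and 0.197 of the vehicle mean. ZNF587B and ZNF880 also fell in both backgrounds, to 0.485 and 0.346 of the vehicle mean in siNT cells and to 0.457 and 0.414 of it in siMLK4 cells. The siMLK4 call of ZNF880 (-0.78) was lost without siMLK4 vehicle replicate 3 or doxorubicin replicate 1 (-0.72 each). ZNF358 in 19p13.2 had 369, 185 and 139 normalized reads with siNT and vehicle and 72, 36.7 and 77.1 with doxorubicin. Its log2 fold change was -1.31 ± 0.32 (limma adjusted p = 0.0028) and rested on single libraries: without siNT vehicle replicate 1 it was -0.98 and without siNT doxorubicin replicate 2 it was -1.12, and neither was called. In siMLK4 cells its value was -0.69 ± 0.32 (limma adjusted p = 0.074). ZNF260 was called lower in siMLK4 cells alone, with -0.80 ± 0.19 (limma adjusted p = 0.0028) beside -0.62 ± 0.19 (limma adjusted p = 0.014) in siNT cells. With doxorubicin its mean was 0.496 of the vehicle mean in siMLK4 cells and 0.578 of it in siNT cells. ZNF260 lost its call without siMLK4 vehicle replicate 1 (-0.66), vehicle replicate 2 (-0.78) or doxorubicin replicate 2 (-0.67).

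Members were also set apart by whether a KRAB A box was found. Of the 8 genes called lower in siNT cells, 4 lacked the box (ZNF784, ZNF579, ZNF358 and ZNF414), although 26 of 205 members did. Without siNT vehicle replicate 1, 6 of these 8 were still called, and ZNF358 was among those lost. The 179 members with the box had a median log2 fold change of 0.27, with 24 called higher (13.4%) and 4 lower (2.23%), and the 26 without it had a median of -0.21, with 2 higher (7.69%) and 4 lower (15.4%), beside 12.1% and 10.6% of all features. With the box, 78 were higher (43.6%) and 19 lower (10.6%) at adjusted p under 0.05. Without it 4 were higher (15.4%) and 8 lower (30.8%), beside 29.6% and 27.7% of all features, so the share of lower genes without the box was near the background. The difference between the 2 sets was not tested. In siMLK4 cells the medians were 0.20 and -0.14, with 22 higher (12.3%) and 3 lower (1.68%) with the box and 2 higher (7.69%) and 3 lower (11.5%) without it, beside 12.6% and 10.6% of all features. Scaled to library totals, the medians without the box turned to 0.02 and 0.03. Among the ZNF genes of other chromosomes, the 113 with the box and the 120 without it had medians of 0.11 and 0.07 in siNT cells and of 0.12 and 0.12 in siMLK4 cells. Calls also differed by the number of fingers, which was not tested. In siNT cells 14 of 53 genes with up to 9 fingers were called higher (26.4%), 9 of 90 with 10 to 14 (10.0%) and 3 of 62 with 15 or more (4.84%), beside 12.1% of all features, and 9.43%, 1.11% and 3.23% were called lower, beside 10.6%. Their medians were 0.19, 0.17 and 0.34. In siMLK4 cells 24.5%, 10.0% and 3.23% were called higher, beside 12.6% of all features, and 3.77%, 2.22% and 3.23% lower, beside 10.6%. The medians there were 0.15, 0.14 and 0.22. The profile and these classes were set after the values had been seen, and the medians are a description.

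**Figure D4:**
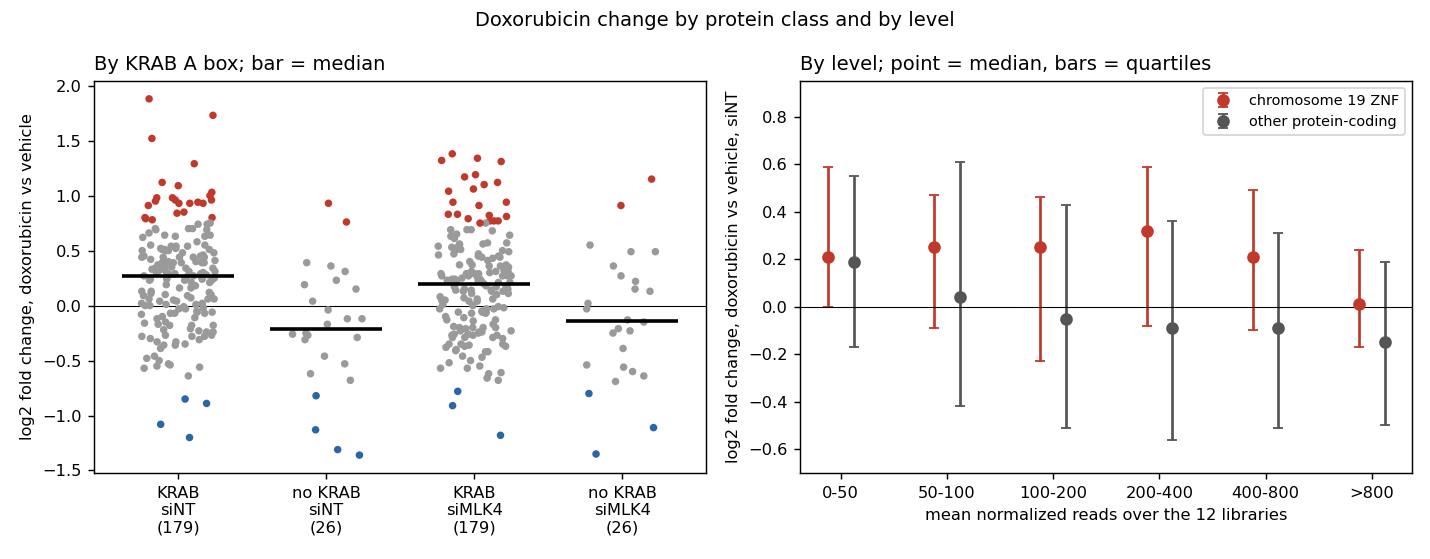
Left, log2 fold change under doxorubicin (vertical axis) of members with and without a KRAB A box in siNT and siMLK4 cells, with red and blue for genes called higher and lower and bars for medians. Right, median log2 fold change in siNT cells (vertical axis, bars are quartiles) of members and of all other protein-coding genes by mean normalized reads (horizontal axis); the 2 sets nearly coincide below 50 reads (0.21 and 0.19) and are farthest apart at 200 to 400 reads (0.32 and -0.09).

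In siNT cells 39.5% of the 2121 protein-coding genes other than members with up to 50 mean normalized reads were higher at adjusted p under 0.05, and 16.5% were lower. Of all features, 9.58% had vehicle means under 10.67 normalized reads and reached that value with doxorubicin. Such features that were higher at adjusted p under 0.05 in siNT cells made up 7.63% of all features. The rise of genes with few reads is therefore not independent of that entry to the table. Features with no read numbered 341, 313 and 354 with siNT and vehicle, and 27, 42 and 40 with siNT and doxorubicin. In siMLK4 cells they numbered 219, 213 and 200 with vehicle and 17, 21 and 17 with doxorubicin. These counts are not independent of entry through the treated groups either. The 3402 features that are not protein-coding had a median of 0.26 in siNT cells, and 44.6% of them were higher at adjusted p under 0.05. Members were therefore set beside other protein-coding genes of like level, in ranges chosen after the data were seen. Up to 50 mean normalized reads, 31 members had a median of 0.21 and 2121 other genes 0.19 in siNT cells. The 5 members that entered through doxorubicin lay in this range. At 50 to 100 reads the medians were 0.25 and 0.04. At 100 to 200 reads the medians were 0.25 and -0.05, and at 200 to 400 reads 0.32 for 51 members and -0.09 for 1786 other genes. At 400 to 800 reads they were 0.21 and -0.09, and above 800 reads 0.01 for 25 members and -0.15 for 5082 other genes. In siMLK4 cells they were 0.29 and 0.17 up to 50 reads, 0.14 and 0.04 at 50 to 100 and 0.19 and -0.04 at 100 to 200. They were 0.20 and -0.08 at 200 to 400 reads, 0.20 and -0.01 at 400 to 800 and -0.03 and -0.08 above 800. The part of library quality in these differences was not tested.

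Members with known roles differed among themselves. ZNF331, an imprinted gene, had 211, 283 and 290 normalized reads with siNT and vehicle, 594, 628 and 531 with siNT and doxorubicin, 470, 426 and 314 with siMLK4 and vehicle, and 889, 957 and 885 with siMLK4 and doxorubicin. Doxorubicin raised it in both backgrounds, by 1.03 ± 0.14 (limma adjusted p = 3.1e-05) and 1.10 ± 0.14 (limma adjusted p = 1.8e-05) on the log2 scale. ZNF350, or ZBRK1, a repressor that partners with BRCA1, rose from 239 ± 31.3 to 507 ± 59 in siNT cells (log2 0.94 ± 0.13, limma adjusted p = 2.8e-05), and its log2 fold change was 0.75 ± 0.13 in siMLK4 cells (limma adjusted p = 0.00021). ZNF93, which represses LINE-1 elements, rose from 39.2 ± 11.7 to 114 ± 2.94 in siNT cells (log2 0.96 ± 0.13, limma adjusted p = 2.9e-05), and had a log2 fold change of 0.61 ± 0.13 (limma adjusted p = 0.0013) in siMLK4 cells, under the fold threshold. ZNF224, a repressor of the aldolase A gene, had log2 fold changes of 0.70 ± 0.13 and 0.53 ± 0.13, which passed adjusted p under 0.05 but not the fold threshold. ZNF274, ZNF83 and ZNF649 passed no threshold in either background, with log2 fold changes of 0.13, -0.18 and -0.22 in siNT cells and 0.06, -0.24 and 0.14 in siMLK4 cells. ZNF91, which represses SVA elements, had 0.11 ± 0.11 (limma adjusted p = 0.4) and -0.35 ± 0.11 (limma adjusted p = 0.013). ZNF382 was annotated but not in the table.

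Knock-down of MLK4 changed few members. With vehicle, the median log2 fold change of siMLK4 against siNT was 0.04. The study's thresholds called 2 genes higher (0.976%) and 3 lower (1.46%), beside 2.51% and 3.14% of all features. At adjusted p under 0.05, 16 were higher (7.8%) and 10 lower (4.88%), beside 12.7% and 13.0% of all features. With doxorubicin the median was 0.01, with 2 genes called higher and 2 lower (0.976% each), beside 2.66% and 2.93% of all features. At adjusted p under 0.05, 14 were higher (6.83%) and 19 lower (9.27%), beside 12.7% and 12.1%. These shares lay below those of all features in each case. With vehicle, the median was -0.03 without siNT replicate 1, and the count of 10 lower genes was 6 without siNT vehicle replicate 2, siMLK4 vehicle replicate 3 or siMLK4 doxorubicin replicate 1. Scaled to library totals, the study's thresholds called 12 genes higher with vehicle (5.85%, beside 7.98% of all features). They called 2 lower (0.976%, beside 2.84%), both among the 3 called lower before. Of the genes past adjusted p under 0.05, 7 were higher (3.41%, beside 5.84% of all features) and 8 lower (3.90%, beside 7.61%) under both treatments. The count of 14 rested on the libraries: it was 8, 3 and 5 on leaving out doxorubicin replicate 1, 2 and 3 of siNT, and 4 and 5 on leaving out doxorubicin replicate 1 and 2 of siMLK4.

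ZNF562 in 19p13.2 (chr19:9641807-9675100) had 1829, 1967 and 2017 normalized reads with siNT and vehicle and 1075, 1068 and 949 with siMLK4 and vehicle. With doxorubicin it had 2222, 2472 and 2219 in siNT cells and 1085, 1153 and 1169 in siMLK4 cells. The siMLK4 libraries lay near 0.532 and 0.493 of the siNT mean, with log2 fold changes of -0.88 ± 0.10 (limma adjusted p = 2.2e-05) and -0.99 ± 0.10 (limma adjusted p = 1.1e-05), and no library overlapped. ZNF146 in 19q13.12 (chr19:36214602-36238771) had 2247, 2042 and 2181 with siNT and vehicle and 1309, 1322 and 1088 with siMLK4 and vehicle, a log2 fold change of -0.78 ± 0.11 (limma adjusted p = 0.00018). Its call was lost without siNT vehicle replicate 1 (-0.75) or siMLK4 vehicle replicate 3 (-0.69). With doxorubicin its log2 fold change was -0.74 ± 0.11 (limma adjusted p = 0.00029), just under the fold threshold. Doxorubicin also lowered it at adjusted p under 0.05, by 0.68 ± 0.11 in siNT cells and 0.64 ± 0.11 in siMLK4 cells on the log2 scale. ZNF556 in 19p13.3 fell from 342 ± 56.3 to 133 ± 24.3 with siMLK4 and vehicle (log2 -1.10 ± 0.15, limma adjusted p = 0.00013) and from 342 ± 56.3 to 136 ± 12.7 with doxorubicin in siNT cells (log2 -1.08 ± 0.15, limma adjusted p = 3.4e-05). With both it had 89.8 ± 20 normalized reads.

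ZNF446 in 19q13.43 (chr19:58474017-58481230) was the gene called higher under both treatments. It had 591, 421 and 428 normalized reads with siNT and vehicle and 751, 782 and 1039 with siMLK4 and vehicle, and 700, 566 and 449 against 1046, 1154 and 835 with doxorubicin. The libraries did not overlap, and the log2 fold change was 0.78 ± 0.18 in each (limma adjusted p = 0.0054 and 0.0056). Its call was lost with vehicle without siNT vehicle replicate 2 (0.70) or 3 (0.71) or siMLK4 vehicle replicate 2 (0.83) or 3 (0.64), and with doxorubicin without doxorubicin replicate 2 (0.78) or 3 (0.63) of siNT, or doxorubicin replicate 1 (0.75) or 2 (0.68) of siMLK4. Of its 50-base stretches 27.3% occur in other genes. ZNF552, also in 19q13.43, rose with vehicle from 153 ± 3.96 to 294 ± 18.6 (log2 0.77 ± 0.11, limma adjusted p = 0.00027) and was not called without siMLK4 vehicle replicate 3 (0.73). With doxorubicin its log2 fold change was 0.27 ± 0.11 (limma adjusted p = 0.099). ZNF850 in 19q13.12 was called higher with doxorubicin, from 100 ± 8.01 to 205 ± 25.1 (log2 0.78 ± 0.15, limma adjusted p = 0.0019), and had 0.67 ± 0.15 (limma adjusted p = 0.005) with vehicle. Its call was lost without siNT doxorubicin replicate 1 (0.74) or siMLK4 doxorubicin replicate 2 (0.70). ZNF583 in 19q13.43 was lower with doxorubicin, 149 ± 19.9 against 67.6 ± 13.3 (log2 -0.80 ± 0.14, limma adjusted p = 0.00085), and had -0.09 ± 0.14 with vehicle. It was not called without siNT doxorubicin replicate 3 (-0.71) or siMLK4 doxorubicin replicate 2 (-0.70).

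Among the bands, 19p12 held the most genes lowered by knock-down under doxorubicin. At adjusted p under 0.05, 6 of its 17 genes were lower (35.3%, beside 12.1% of all features) and 1 higher (5.88%, beside 12.7%). With vehicle 2 were lower (11.8%, beside 13.0%) and 1 higher (5.88%, beside 12.7%), near or below the background. Band 19p13.2 had 5 of 32 lower (15.6%) and none higher under doxorubicin, 19q13.11 had 2 of 6 lower (33.3%) and 1 higher, and 19q13.43 had 3 of 49 lower and 3 higher. The 6 genes of 19p12 were ZNF93, ZNF430, ZNF429, ZNF724, ZNF91 and ZNF675, and ZNF493 was the higher one. This band was singled out after its values were seen, and leaving out any single library gave 5 or 6. ZNF675, or TIZ, which binds TRAF6, had 2245, 2540 and 2566 normalized reads with siNT and doxorubicin and 1502, 1368 and 1611 with siMLK4 and doxorubicin (log2 -0.69 ± 0.10, limma adjusted p = 0.00025). ZNF91 had 1278, 1475 and 1476 against 909, 956 and 935 (log2 -0.57 ± 0.11, limma adjusted p = 0.0019). ZNF93 had 117, 113 and 112 against 67, 65.9 and 65.3 (log2 -0.52 ± 0.13, limma adjusted p = 0.0098). The groups did not overlap in any of these 3 genes. ZNF429 had 93.2, 76.4 and 80.1 against 41.6, 37.5 and 33.6 under doxorubicin (log2 -0.67 ± 0.12, limma adjusted p = 0.00098), and its log2 fold change with vehicle was 0.01 ± 0.12. ZNF724 shares 48.2% of its 50-base stretches with other genes.

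**Figure D5:**
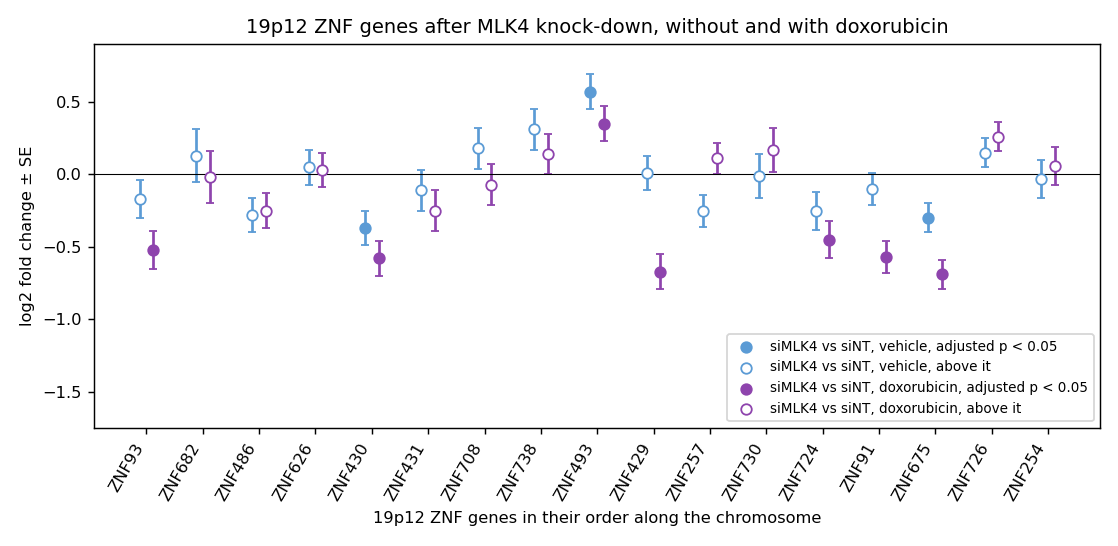
Log2 fold change (vertical axis, ± SE) of siMLK4 against siNT for the 17 measured 19p12 ZNF genes in chromosomal order (horizontal axis), with vehicle (blue) and with doxorubicin (purple). Filled points passed adjusted p under 0.05; 6 genes were lower and ZNF493 was higher with doxorubicin, and 2 were lower and ZNF493 was higher with vehicle.

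Whether the doxorubicin response differed between siRNAs was tested as an interaction (siMLK4 minus siNT). The median over the 205 genes was -0.06. None passed adjusted p under 0.05 by limma in either direction, beside 0.576% of all features higher and 0.623% lower, and none passed by limma-voom. At an unadjusted p under 0.05 there were 22 (10.7%, beside 14.5% of all features). The lowest adjusted p was 0.065, for ZNF429 (-0.68 ± 0.17). ZNF583 (-0.71 ± 0.19, limma adjusted p = 0.091) and ZNF675 (-0.40 ± 0.14, limma adjusted p = 0.2) did not pass either. Thus the 19p12 genes lowered under doxorubicin and not with vehicle were not shown to differ between the treatments.

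The partners of these proteins were examined from a list of 24 corepressor and heterochromatin genes, all of which were measured. TRIM28, the common KRAB corepressor, which itself lies on chromosome 19, had 9542 reads per kilobase and log2 fold changes of 0.02 (limma adjusted p = 0.91) and 0.15 (limma adjusted p = 0.36) under doxorubicin. SETDB1 fell at adjusted p under 0.05 in siNT and siMLK4 cells, by 0.47 and 0.58 on the log2 scale. In siNT cells 8 of the 24 were higher (33.3%, beside 29.6% of all features) and 7 lower (29.2%, beside 27.7%) at adjusted p under 0.05. In siMLK4 cells 4 were higher (16.7%, beside 30.2%) and 5 lower (20.8%, beside 27.7%). These shares lay near or below the background, and the medians were 0.09 and 0.05. By the study's thresholds SUV39H2, an H3K9 methyltransferase, was higher in both (0.81 and 1.03). RESF1 was called higher in siNT cells (0.83) and had 0.22 in siMLK4 cells (limma adjusted p = 0.27). UHRF1, which guides maintenance DNA methylation, was called higher in siMLK4 cells (0.93) and had 0.72 in siNT cells. HDAC1, a histone deacetylase, was called lower in siMLK4 cells (-0.76) and had -0.62 in siNT cells. In siNT cells UHRF1 and HDAC1 passed adjusted p under 0.05 but not the study's thresholds. HDAC2 was higher at adjusted p under 0.05 in both, by 0.72 and 0.74. EHMT2 (-0.73 and -0.51) and CBX1 (-0.32 and -0.35) were lower in both at that level. SUV39H1 was lower in siNT cells (-0.33) and higher in siMLK4 cells (0.29) at that level. Its interaction was 0.62 (limma adjusted p = 0.058). In siNT cells CBX5, TASOR, PPHLN1 and DAXX were also higher, and EHMT1 and SMARCAD1 lower, at that level. In siMLK4 cells CBX3 was also lower. Knock-down raised EHMT2, an H3K9 methyltransferase, at adjusted p under 0.05 with vehicle (0.45) and with doxorubicin (0.66). With doxorubicin it also raised SUV39H1 (0.91, called by the study's thresholds) and lowered RESF1 (-0.74). With vehicle no other gene of the list passed adjusted p under 0.05.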

How the data were processed

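RNA of HCC1806 cells was sequenced as poly(A)-selected, paired-end libraries, 3 per group. Per the labels and the study's methods, the authors trimmed reads with Trimmomatic 0.39 (minimum length 50), aligned them with HISAT2, removed optical duplicates and counted genes by strand with HTSeq 0.6.0. The build is given both as hg19 and as GRCh38, and the table carries only Ensembl IDs, so all positions here are from GENCODE 44 (GRCh38). Bands follow GRCh38 boundaries rounded by hand, so a gene at a band's edge may belong to its neighbour. The log2-scale values deposited by the authors are DESeq2 1.26.0 variance-stabilized values for 17013 features in 12 libraries. They were inverted to reads, and 100% of values were whole within 0.05, with size factors from 0.852 to 1.199. These totals limit precision for genes with few reads.

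Comparisons used limma 3.58.1 (R 4.3.3) on the log2 values with 4 group means over all 12 libraries, a variance trend and Benjamini-Hochberg adjustment over 17013 features. The fit was also run on simulated counts with the same spread for every gene and changes planted only in genes with more reads. There the study's thresholds recovered 83% of changes of log2 1 and 100% of those of log2 2, with 0 false calls. That setting is simpler than these libraries and does not vouch for calls of genes with few reads. Members were matched by Ensembl ID. KRAB A boxes were found with a profile (pyhmmer 0.12.3, E-value under 0.001) and fingers counted in GENCODE coding sequences translated in frame. Named genes were MAP3K21, up to 6 members most changed in each direction per doxorubicin comparison and up to 5 per knock-down comparison (5 genes qualified with vehicle and 4 with doxorubicin) among called members whose libraries did not overlap, the member highest per kilobase in each band, and 10 members with known roles. ZNF653, ZNF627, ZNF441, ZNF763, ZNF44, ZNF563, ZNF440, ZNF69, ZNF414, ZNF429, ZNF430, ZNF724, ZNF493, ZNF20, ZNF253, ZNF682, ZNF415, ZNF136, ZNF524, ZNF865, ZNF121, ZNF45, ZNF581, ZNF77 and ZNF28 were named after their values were seen. The members and lists were chosen with earlier results of these data known. Deviations of same-numbered libraries from their group means had positive correlations in the siNT doxorubicin comparison (0.46, 0.11 and 0.20) and the knock-down with doxorubicin (0.19, 0.52 and 0.56). In the other 2 comparisons their signs were mixed (-0.08, 0.18 and 0.34, and -0.72, 0.32 and -0.52). Libraries of unlike number also correlated, as siNT vehicle 3 with siNT doxorubicin 2 (0.31). With vehicle, siNT 1 with siMLK4 3 had 0.69 and siNT 3 with siMLK4 1 had 0.65. These values therefore do not show whether same-numbered libraries were paired. Alternatives were other log scales, limma-voom, library totals, a filter on low values, fewer groups, a replicate block, no variance trend and leaving out libraries or members that share sequence.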

Additional observations from a re-analysis of the deposited data

Results flagged for a closer look

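In 7 genes the 3 libraries of each group did not overlap and the change went one way in one background or treatment and the other way in the other. The share of all features under this rule is not given, so the count says nothing about the family. In none of the 7 genes did the interaction pass adjusted p under 0.05 by limma. Doxorubicin gave ZNF552 a log2 fold change of 0.25 in siNT and -0.24 in siMLK4 cells, a difference of -0.50 (limma adjusted p = 0.15), and ZNF606 one of 0.30 and -0.17, a difference of -0.47 (limma adjusted p = 0.093). The knock-down gave ZNF823 0.32 with vehicle and -0.19 with doxorubicin, a difference of -0.51 (limma adjusted p = 0.079). Its values were 0.30 and -0.29 for ZNF441, a difference of -0.59 (limma adjusted p = 0.11), and 0.22 and -0.26 for ZNF433, a difference of -0.48 (limma adjusted p = 0.14). ZNF44 had 0.24 and -0.06, a difference of -0.30 (limma adjusted p = 0.29), and ZNF226 had 0.33 and -0.15, a difference of -0.47 (limma adjusted p = 0.16). ZNF823, ZNF441, ZNF433 and ZNF44 lie in the 19p13.2 run described above.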

How the results depend on the processing

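No called value reversed. Of the medians of at least 0.1 in size, 3 changed sign: that of 19p12 in siMLK4 cells under doxorubicin (0.22) with features of a mean of at least 50 normalized reads only, and those of members without a KRAB A box (-0.21 and -0.14) with library totals. Medians nearer 0 also changed sign. Apart from leaving out libraries, 538 summary values under the alternatives stayed within the limits set for them and 102 moved, and with a library left out 803 stayed and 37 moved. Of the values of named genes, 759 kept their side of the threshold, 34 newly passed it and 3 no longer did, and with a library left out 1165 kept it, 13 newly passed and 22 no longer did. The cause of these shifts was not tested. Scaling to library totals moved the median of all features by 0.24 and 0.19 for the siNT and siMLK4 doxorubicin responses and by 0.14 and 0.09 for the knock-down with vehicle and with doxorubicin, and its other values carry that shift. With the replicate number as a replicate block, the counts by the study's thresholds were 26 higher and 8 lower, 24 and 6, 2 and 3, and 2 and 2 in the 4 comparisons, as without it, and it changed no other call count by over 1.5 times. The interaction could not be fitted from 2 groups alone. A count below with no share of all features beside it, here or in the results above, says nothing about the family. On log2(normalized reads + 1), in the siNT doxorubicin response, the count called higher was 44, the median was 0.32, the median of 19p13.2 was 0.47, the median of 19q13.31 was 0.49 and the median of members with a KRAB A box was 0.37. On log2(normalized reads + 1), in the siMLK4 doxorubicin response, the count called lower was 11 (5.37%, beside 14.5% of all features). The median of 19p13.2 was 0.33 there and the median of 19p12 was 0.31. On log2(normalized reads + 1), in the knock-down with vehicle, the count called higher was 5 (2.44%, beside 5.26% of all features). On log2(normalized reads + 1), in the knock-down with doxorubicin, the count called lower was 6 (2.93%, beside 4.09% of all features) and the median of 19q13.42 was 0.27. In the siNT doxorubicin response on log2(normalized reads + 5), the count called higher was 43, the median was 0.3 and the median of 19p13.2 was 0.45. In the siMLK4 doxorubicin response on log2(normalized reads + 5), the count called lower was 11 (5.37%, beside 14.5% of all features) and the median of 19p12 was 0.29. In the knock-down with vehicle on log2(normalized reads + 5), the count called higher was 5 (2.44%, beside 5.33% of all features). In the knock-down with doxorubicin on log2(normalized reads + 5), the count called lower was 6 and the median of 19q13.42 was 0.26. With limma-voom, in the siNT doxorubicin response, the count called higher was 44, the median was 0.32, the median of 19p13.2 was 0.48, the median of 19p12 was 0.46, the median of 19q13.31 was 0.47 and the median of members with a KRAB A box was 0.37. With limma-voom, in the siMLK4 doxorubicin response, the count called lower was 11, the median of 19p13.2 was 0.33 and the median of 19p12 was 0.3. With limma-voom, in the knock-down with vehicle, the count called higher was 4 (1.95%, beside 4.62% of all features). With limma-voom, in the knock-down with doxorubicin, the count called lower was 7 (3.41%, beside 4.25% of all features) and the median of 19q13.42 was 0.27. Scaled to library totals, in the siNT doxorubicin response, the count called higher was 68, the count at adjusted p under 0.05 lower was 16, the median was 0.55, the median of 19p13.3 was 0.32, the median of 19p13.2 was 0.71, the median of other bands was 0.54, the median of 19p12 was 0.68, the median of 19q13.11 was 0.25, the median of 19q13.12 was 0.24, the median of 19q13.31 was 0.73, the median of 19q13.41 was 0.62, the median of 19q13.42 was 0.25, the median of 19q13.43 was 0.51, the median of members with a KRAB A box was 0.61 and the median of members without a KRAB A box was 0.02. Scaled to library totals, in the siMLK4 doxorubicin response, the count called higher was 47, the count at adjusted p under 0.05 lower was 16, the median was 0.39, the median of 19p13.3 was 0.67, the median of 19p13.2 was 0.51, the median of other bands was 0.48, the median of 19p12 was 0.49, the median of 19q13.11 was 0.28, the median of 19q13.12 was 0.11, the median of 19q13.31 was 0.34, the median of 19q13.41 was 0.42, the median of 19q13.42 was 0.14, the median of 19q13.43 was 0.39, the median of members with a KRAB A box was 0.43 and the median of members without a KRAB A box was 0.03. Scaled to library totals, in the knock-down with vehicle, the count called higher was 12, the count at adjusted p under 0.05 higher was 38, the count at adjusted p under 0.05 lower was 5, the median was 0.2, the median of 19p13.2 was 0.25, the median of other bands was 0.2, the median of 19q13.12 was 0.17, the median of 19q13.31 was 0.3 and the median of 19q13.42 was 0.18. Scaled to library totals, in the knock-down with doxorubicin, the count called lower was 5 (2.44%, beside 3.22% of all features). There the count at adjusted p under 0.05 higher was 22 and the count at adjusted p under 0.05 lower was 12. The median of 19q13.11 was 0.18, that of 19q13.31 was 0.11, that of 19q13.42 was 0.35 and that of 19q13.43 was 0.12. In the siNT doxorubicin response at adjusted p under 0.05 with no fold threshold, the count called higher was 82 and the count called lower was 27. In the siMLK4 doxorubicin response at adjusted p under 0.05 with no fold threshold, the count called higher was 67 and the count called lower was 30. In the knock-down with vehicle at adjusted p under 0.05 with no fold threshold, the count called higher was 16 and the count called lower was 10. In the knock-down with doxorubicin at adjusted p under 0.05 with no fold threshold, the count called higher was 14 and the count called lower was 19. With members with a KRAB A box only, in the siNT doxorubicin response, the count called lower was 4. With members with a KRAB A box only, in the siMLK4 doxorubicin response, the count called lower was 3. With features of a mean of at least 50 normalized reads only, in the siNT doxorubicin response, the median of 19q13.11 was 0.42 and the median of 19q13.42 was -0.17. With features of a mean of at least 50 normalized reads only, in the siMLK4 doxorubicin response, the median of 19p12 was -0.02, the median of 19q13.11 was 0.15, the median of 19q13.31 was 0.2 and the median of 19q13.42 was -0.15. With features of a mean of at least 50 normalized reads only, in the knock-down with vehicle, the median of 19q13.11 was -0.23. With features of a mean of at least 50 normalized reads only, in the knock-down with doxorubicin, the median of 19p12 was -0.35 and the median of 19q13.11 was -0.43. With runs of neighbouring genes in place of bands, in the siNT doxorubicin response, the largest cluster median was 0.54. With the 2 groups compared alone, in the knock-down with vehicle, the count called higher was 1 and the count at adjusted p under 0.05 lower was 5. Without members that share over 20% of their 50-base stretches, in the knock-down with vehicle, the count called higher was 1. Without members that share over 20% of their 50-base stretches, in the knock-down with doxorubicin, the count called higher was 1 and the median of 19q13.43 was -0.05. With 1 library left out at a time, in the siNT doxorubicin response, the median ran from 0.19 to 0.28 and the median of 19p13.3 ran from -0.03 to 0.17. In the siMLK4 doxorubicin response, with 1 library left out, the median of 19q13.31 ran from 0.05 to 0.24 and the median of 19q13.42 ran from -0.07 to 0. In the knock-down with vehicle, with 1 library left out, the count called higher ran from 1 to 2, the count at adjusted p under 0.05 lower ran from 6 to 10, the median ran from -0.03 to 0.07, the median of 19p13.3 ran from -0.21 to -0.07, the median of other bands ran from -0.06 to 0.07 and the median of 19q13.42 ran from 0 to 0.12. In the knock-down with doxorubicin, with 1 library left out, the count called higher ran from 0 to 2, the count at adjusted p under 0.05 higher ran from 3 to 14, the count called lower ran from 1 to 4, the count at adjusted p under 0.05 lower ran from 12 to 21, the median of 19q13.11 ran from -0.03 to 0.16 and the median of 19q13.31 ran from 0.01 to 0.11.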
